A study of Mus musculus with 4 samples.

Results

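Transcripts of 10 genes that carry signals between islet cells and islet vessels were followed across the cell types of mouse islets: the ligands Vegfa, Vegfb and Vegfc, the receptors Kdr, Flt1 and Nrp1, the angiopoietin genes Tek and Angpt2, and the pericyte pair Pdgfb and Pdgfrb. They were chosen by gene symbol, and all 10 have a row among the 32227 gene rows of the count matrices. The islets came from adult Myt3IM/IM mice and from wild-type control mice of the same founder line. Myt3 is the gene St18, and the Myt3IM allele carries a 12 bp insertion that disrupts an upstream open reading frame. Mutants were homozygous, the allele was present in every cell type and not in β cells alone, and no further allele or agent is named for either group. The labels give a normal diet and the PIPseq platform for all samples, whereas the methods of the study describe high-fat-fed mice and inDrop-Seq, and the files do not settle which holds. Each sample pooled islets of males and females, so a library is a pool and not an animal. The labels name 4 libraries, mutant 1, mutant 2, control 1 and control 2. The report rests on the counts of mutant 1, mutant 2 and control 2, and control 1 was not used here.

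A count is a unique molecular identifier (UMI), which marks 1 captured transcript. After filters on UMIs, genes and mitochondrial RNA, mutant 1, mutant 2 and control 2 kept 2940, 2040 and 2283 cells, with medians of 2427, 3851.5 and 14051 UMIs per cell. Control 2 was therefore the deepest library, the labels also give it another batch entry than the other libraries, and genotype, depth and batch entry cannot be told apart. With 1 control library, no test between genotypes was run. The libraries shared 0 cell barcodes.

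Vegfa, the best-known vessel growth factor of the islet, is made by endocrine cells and acts on the endothelium, which bears the receptor kinases Kdr (VEGFR2, which transmits most of the growth signal) and Flt1 (VEGFR1, a high-affinity receptor that also acts as a trap for the ligand). Nrp1 is a co-receptor that binds VEGF and semaphorins. Vegfb binds Flt1 and not Kdr, and Vegfc acts mainly through Flt4 in lymphatic vessels. Tek (TIE2) is the endothelial receptor of the angiopoietins, with Angpt2 as a context-dependent antagonist made by endothelium, and Pdgfb released by endothelium recruits pericytes through Pdgfrb.

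Cells were sorted into classes without use of the 10 genes, by the share of their UMIs from Ins1 and Ins2 (β), Gcg (α), Sst (δ) or Ppy (PP), or from fixed marker lists for endothelial, stellate and macrophage cells. A cell that met more than 1 rule was set aside as mixed (298 of 7263 cells). The classes held 5870 β, 517 α, 201 δ, 91 PP, 97 endothelial-like, 33 stellate-like and 40 macrophage-like cells. Among all kept cells, 76.9%, 76.0% and 90.2% were β cells in mutant 1, mutant 2 and control 2. The endothelial-like class held 34, 30 and 33 cells in that order, and the stellate-like class 10, 8 and 15. Levels are given in CPM, the UMIs of a gene per 1000000 UMIs of its class in that library. UMIs count transcripts and were not divided by gene length. By the rule itself the 10 endothelial markers were high in the endothelial-like cells, with 18202, 17470 and 15815 CPM against 98.2, 107 and 46.3 CPM in β cells. The 12 stellate markers summed to 13186, 15157 and 17983 CPM in the stellate-like cells. Cldn5 was at 0 in the endothelial-like cells of mutant 1, and Dcn and Pdgfra were at 0 in the stellate-like cells of that library. Clusters formed from all variable genes and named from the same markers placed 96 of the 97 endothelial-like cells in an endothelial cluster and 33 of the 33 stellate-like cells in a stellate cluster. These clusters were wider than the classes. The endothelial cluster held 110 cells, 14 of them mixed. The stellate cluster held 62 cells (27, 10 and 25 in mutant 1, mutant 2 and control 2), with 15 mixed and 9 unassigned cells among them.

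The receptor genes that turned out to be shared by the endothelial-like cells are shown by the bases before their start sites, since ETS factors, which bind the core GGAA, are known regulators of endothelial genes. The 250 bases upstream of the annotated start are printed 5′ to 3′ on the strand of the gene, from RefSeq on GRCm38.p6, with each GGAA or its reverse complement TTCC in capitals. In the GENCODE vM21 annotation of GRCm38, Flt1 spans 147561604 to 147726011 of chromosome 5 and Kdr 75932827 to 75978458 of the same chromosome, while Vegfa spans 46016993 to 46032369 of chromosome 17 and Vegfb 6982473 to 6987651 of chromosome 19. The Flt1 window lies at chr5:147726012-147726261 on the minus strand, that of Kdr at chr5:75978456-75978705 on the minus strand and that of Tek at chr4:94739039-94739288 on the plus strand.
Flt1: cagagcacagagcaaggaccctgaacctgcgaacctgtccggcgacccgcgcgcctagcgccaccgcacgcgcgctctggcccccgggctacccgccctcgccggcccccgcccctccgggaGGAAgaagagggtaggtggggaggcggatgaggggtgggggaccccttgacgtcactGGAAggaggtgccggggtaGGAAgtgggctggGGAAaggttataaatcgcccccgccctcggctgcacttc
Kdr: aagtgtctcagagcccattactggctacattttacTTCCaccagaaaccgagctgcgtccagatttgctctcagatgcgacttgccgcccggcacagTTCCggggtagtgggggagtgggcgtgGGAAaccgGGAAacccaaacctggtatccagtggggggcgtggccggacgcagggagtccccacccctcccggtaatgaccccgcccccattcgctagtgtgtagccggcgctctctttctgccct
Tek: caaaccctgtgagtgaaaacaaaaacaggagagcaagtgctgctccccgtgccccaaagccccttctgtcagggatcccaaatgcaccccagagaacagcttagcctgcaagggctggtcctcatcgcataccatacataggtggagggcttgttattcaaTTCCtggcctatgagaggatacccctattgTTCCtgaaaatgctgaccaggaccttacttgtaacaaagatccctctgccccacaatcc
The windows of Flt1 and Kdr each held 4 matches and that of Tek 2. Among 32851 promoter windows of the same length the median was 3 matches, 93.4% held at least 1, 33.4% held 4 or more and 76.8% held 2 or more, so these counts are ordinary for this short motif and describe letters, not binding.

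Vegfa RNA was found in all endocrine classes and was the most abundant of the ligands there. In β cells its level was 148 CPM in mutant 1 (1040 UMIs), 147 CPM in mutant 2 (1106 UMIs) and 76.3 CPM in control 2 (2680 UMIs). In α cells it was 123, 119 and 97.4 CPM in the same order, in δ cells 168, 184 and 147 CPM, and in PP cells 130, 147 and 103 CPM. The ranges of all these classes over the libraries met those of their neighbours in the order of levels. Within each library δ cells had the highest of these levels, on 22, 34 and 20 UMIs, but their order with β cells depends on the scaling, as given below. Because β cells are so numerous, they held 84.7%, 83.5% and 94.8% of all Vegfa UMIs of mutant 1, mutant 2 and control 2. Endothelial-like cells had 49.1, 61.7 and 25.6 CPM, from 3, 5 and 7 UMIs, and lay below the β cells of their own library in all 3 libraries. The stellate-like cells held 0, 1 and 2 Vegfa UMIs.

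**Figure D1:**
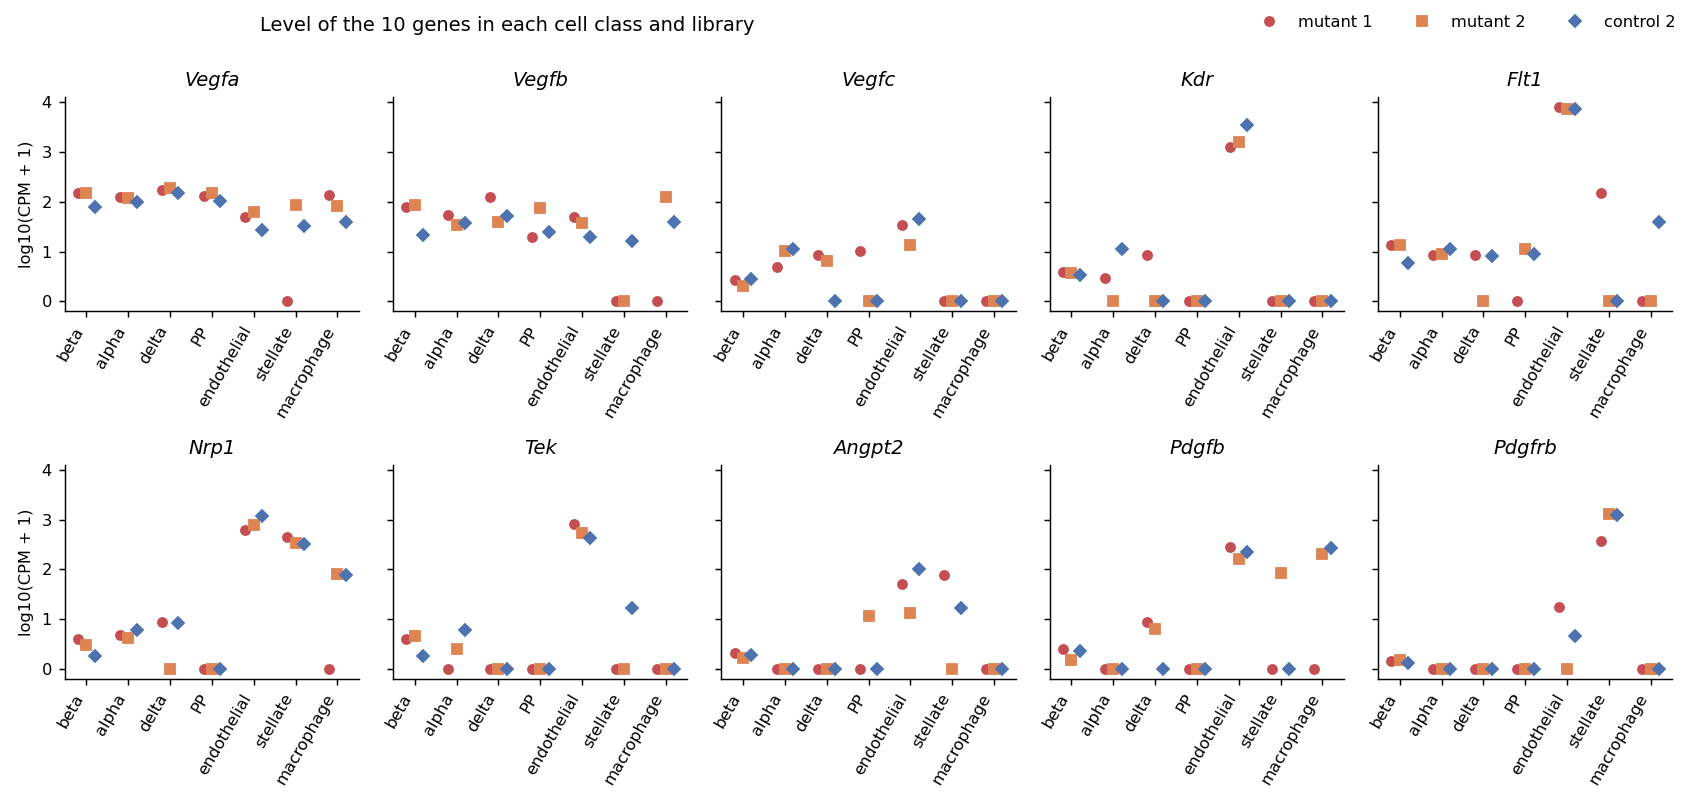
Each panel plots 1 gene, with the cell classes on the horizontal axis and log10(CPM + 1) on the vertical axis, 1 point per library. Vegfa and Vegfb spread over the endocrine classes, Kdr, Flt1 and Tek stand out in endothelial-like cells, and Pdgfrb stands out in stellate-like cells.

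The classes were compared on UMIs summed per class and library, with the libraries as replicates and the library as a block (edgeR quasi-likelihood test, Benjamini-Hochberg adjustment over 5327 genes). Of the 10 genes, 8 passed the filter on low counts, and Vegfc and Angpt2 did not. Kdr, Flt1, Nrp1, Tek, Pdgfb and Pdgfrb lay at 0.34 to 12.7 CPM in β cells. They passed this filter through the endothelial-like, stellate-like or macrophage-like sums, where they were high. That favoured a higher call in those classes, so counts of members called are not read against the shares of all genes. TMM scaling was used, which sets the bulk of genes equal between classes. Because hormone transcripts fill much of the β cell UMIs, this scaling raises the other genes of β cells, with factors of 0.458 to 0.558 for β sums against 1.15 to 1.29 for endothelial sums. Vegfa was lower in endothelial-like than in β cells by a log2 difference of -2.78 ± 0.36 (SE, adjusted p = 3.6e-11), and it remained lower on plain CPM of all UMIs. Vegfa was also lower in stellate-like cells, with a log2 difference of -3.37 ± 0.72 (adjusted p = 6.8e-05), a call that was lost on plain CPM (-1.90, adjusted p = 0.072) and that rests on 2 UMIs in the sums used.

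Between α and β cells, 2 of the 8 genes passed the test, Vegfa (-0.83 ± 0.23, adjusted p = 0.0037) and Vegfb (-1.30 ± 0.31, adjusted p = 0.00051), both lower in α cells, while 16.9% of all genes tested were called lower and 10.9% higher. On plain CPM of all UMIs these differences were -0.12 (adjusted p = 0.73) and -0.62 (adjusted p = 0.13), so the α to β contrast of the ligands depends on whether the hormone-rich β libraries are rescaled. The split of all α to β calls moved with it, from 582 higher and 900 lower to 1925 higher and 280 lower. Without mutant 2 neither call held (adjusted p = 0.22 for Vegfa and 0.34 for Vegfb), and without mutant 1 that of Vegfa was lost (adjusted p = 0.085).

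Between δ and β cells, 0 of the 8 genes passed the edgeR test, against 6.89% of all genes called higher and 12.5% lower. DESeq2 also called 0 of the 8, beside 369 higher and 535 lower of 5327 genes. Vegfa differed by -0.62 ± 0.26 (adjusted p = 0.078) and Vegfb by -0.84 ± 0.36 (adjusted p = 0.086) on the TMM scale. On plain CPM both estimates changed sign (0.47 and 0.24). Without control 2 both passed the TMM test, with 3 of 7 genes called, beside 468 higher and 824 lower of 5332 genes. The order of β and δ cells in Vegfa was therefore not settled by these libraries.

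**Figure D2:**
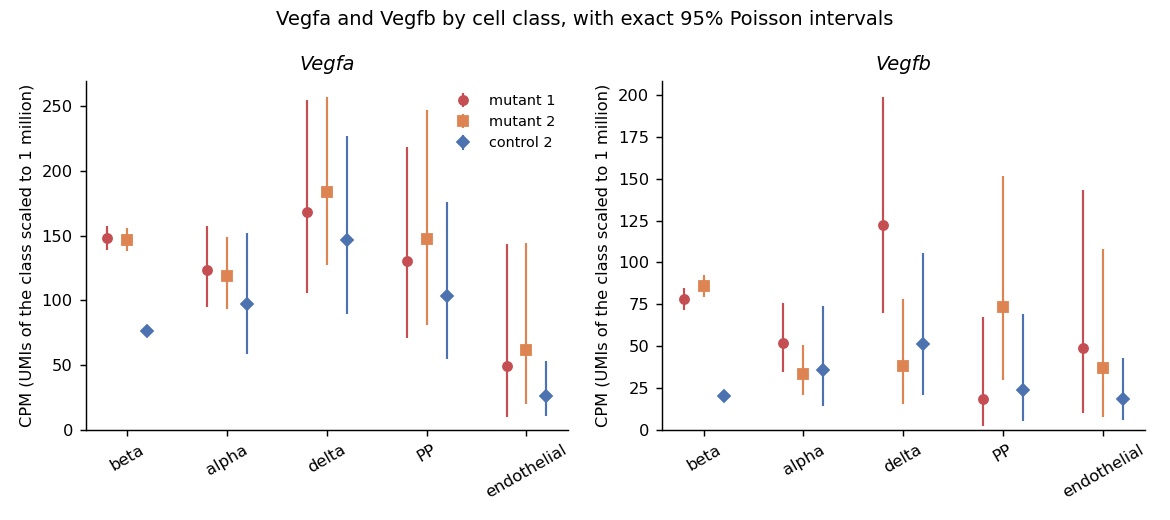
Vegfa and Vegfb in CPM (vertical axes) by cell class, 1 point per library with exact 95% Poisson intervals, which cover counting error only. In β cells the mutant libraries lie above control 2. In α and δ cells the Vegfa intervals of the libraries overlap, on 19 to 75 UMIs against 1040 to 2680 in β cells. This overlap therefore does not show that α and δ cells differ from β cells.

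Insulin UMIs were also present in the other classes, and the Vegfa UMIs of each class were set against the amount that goes with them in β cells of the same library. α cells held 9.12, 10.1 and 18.4 times that amount in mutant 1, mutant 2 and control 2, and δ cells 9.37, 10.6 and 23.1 times. Endothelial-like cells held 3.63, 4.66 and 5.48 times the amount on only 3 to 7 UMIs, and macrophage-like cells 7.78, 5.66 and 5.59 times on 2 UMIs in each library. Stellate-like cells held 5.83 and 5.38 times the amount in mutant 2 and control 2, on 1 and 2 UMIs, and 0 UMIs in mutant 1. The ratio was thus above 1 in classes outside the endocrine cells as well, with that of the macrophage-like cells near that of the α cells in mutant 1, and the part of free RNA in the Vegfa of α and δ cells was not tested.

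Within β cells, Vegfa counts were spread about as single draws from an even level. Cells were thinned to 1000 UMIs, and cells with fewer were dropped, here and in all later values at that depth. This left 1899 of 2260, 1389 of 1551 and 2059 of 2059 β cells in mutant 1, mutant 2 and control 2. A Vegfa UMI was held by 13.3%, 14.1% and 9.13% of these cells in the same order. The variance of the count was 1.01, 1.05 and 1.01 times its mean. Without thinning the shares were 33.9%, 45.8% and 65.0%, in the order of the depth of the libraries. In thinned endothelial-like cells, 4.17%, 6.90% and 3.03% held a Vegfa UMI. With fewer than 1 Vegfa UMI in most thinned cells, a subset of β cells with more Vegfa was not detectable at this depth.

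Vegfb, which signals through Flt1, followed Vegfa at a lower level. β cells had 78.0, 85.6 and 20.2 CPM in mutant 1, mutant 2 and control 2, from 548, 646 and 710 UMIs. α cells had 52.1, 33.2 and 35.9 CPM, and δ cells 122, 37.9 and 51.4 CPM, on 7 to 27 UMIs in each library. The β cells of control 2 thus lay below its α and δ cells, while in mutant 2 they lay above both. Vegfb was lower in endothelial-like than in β cells on the TMM scale (-1.93 ± 0.46, adjusted p = 0.00013), a call lost on plain CPM (-0.68, adjusted p = 0.23). In stellate-like cells only 1 Vegfb UMI was counted over the libraries, and its call (-3.00 ± 1.10, adjusted p = 0.027) was lost with DESeq2 (adjusted p = 0.10) and in 6 further settings.

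Vegfc, the lymphatic ligand, was rare. Endothelial-like cells held 2, 1 and 12 UMIs (32.7, 12.3 and 44.0 CPM), and β cells 12, 8 and 62 UMIs (1.71, 1.06 and 1.76 CPM). Without the filter on low counts Vegfc was higher in endothelial-like cells, with a log2 difference of 3.01 ± 0.68 (edgeR, adjusted p = 9.6e-05). The β cells of control 2 held 13.7 times the Vegfc that goes with their endothelial marker UMIs in endothelial-like cells, and 27.7 times when Cdh5 was left out of the markers.

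The VEGF receptors were concentrated in the endothelial-like cells. Flt1 was the most abundant of the 10 genes there, with 8021 CPM in mutant 1, 7180 in mutant 2 and 7325 in control 2, against 12.7, 12.3 and 5.01 CPM in β cells. Kdr stood at 1228, 1567 and 3457 CPM in endothelial-like cells and at 2.99, 2.78 and 2.42 CPM in β cells. Nrp1 stood at 622, 765 and 1176 CPM in endothelial-like cells, and the angiopoietin receptor Tek at 818, 531 and 421 CPM. The endothelial range of each of these genes lay above that of every other class. Of the 8 genes tested, 5 were higher in endothelial-like than in β cells and 2, the ligands Vegfa and Vegfb, were lower, with 25.1% of all genes called higher and 30.8% lower. The 5 had passed the filter on low counts through the classes where they were high, so this count is no support for the direction. The log2 differences were 8.42 ± 0.30 for Flt1 (adjusted p = 6.8e-52), 8.34 ± 0.31 for Kdr (adjusted p = 4.3e-49), 7.84 ± 0.33 for Nrp1 (adjusted p = 1.9e-45), 6.81 ± 0.37 for Tek (adjusted p = 5.2e-34) and 6.25 ± 0.57 for Pdgfb (adjusted p = 1.3e-18). These 5 calls held in the 12 alternatives run, although the split of all genes moved from 1337 higher and 1639 lower to 2877 higher and 585 lower on plain CPM.

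**Figure D3:**
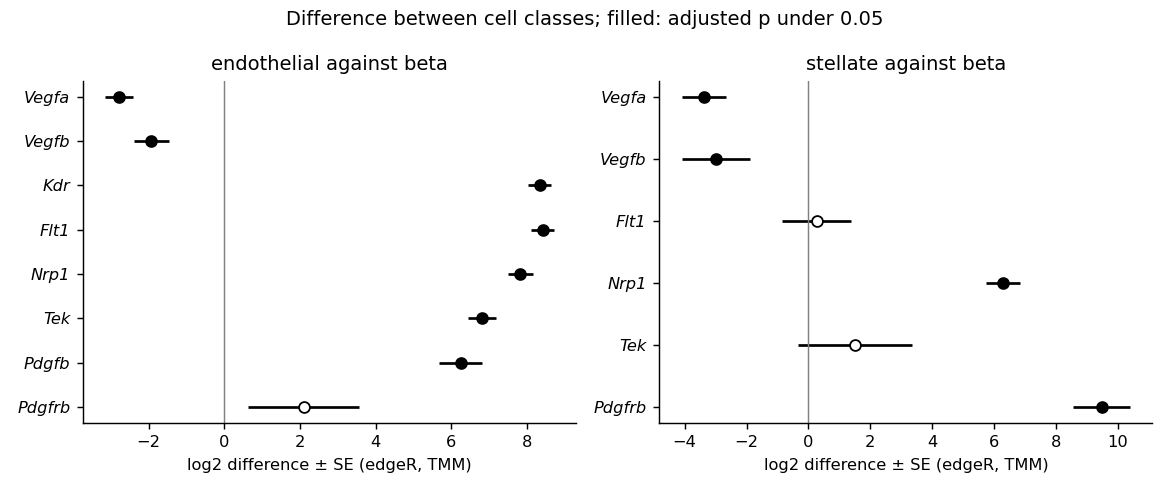
Log2 differences with standard errors (horizontal axes) of endothelial-like against β cells and of stellate-like against β cells, from edgeR on sums per class and library. The standard errors were derived from the F value of the test. Filled points passed an adjusted p of 0.05, and Kdr and Pdgfb are left out of the stellate panel because both stellate sums used held 0 UMIs.

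Single endothelial-like cells mostly carried several receptors at once. A Flt1 UMI was present in every one of the 34, 30 and 33 cells, and both Flt1 and Kdr were present in 24 of 34, 24 of 30 and 33 of 33. All 4 receptors were seen in 13, 15 and 30 cells of mutant 1, mutant 2 and control 2, in the order of depth. Among cells of at least 1000 UMIs, thinned to that depth, Flt1 was seen in 100%, 96.6% and 100% of endothelial-like cells. In β cells the shares were 1.26%, 1.22% and 0.631%. The median cell held 11.5, 14 and 56 Flt1 UMIs and 2, 2.5 and 17 Kdr UMIs.

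Few receptor UMIs were found in β cells, and they were set against the endothelial marker UMIs of the same cells, each receptor in the ratio to the markers seen in endothelial-like cells. With the 10 markers, which gave 690, 807 and 1628 UMIs in β cells, Flt1 reached 0.293, 0.280 and 0.233 of that amount and Kdr 0.451, 0.290 and 0.239 in mutant 1, mutant 2 and control 2. Nrp1 reached 0.891, 0.425 and 0.248 of it, and Tek 0.677, 1.14 and 0.692. This scale rests largely on Cdh5, the VE-cadherin gene, which gave 312, 369 and 863 of those β cell UMIs but only 46 of 1112, 66 of 1416 and 217 of 4318 in endothelial-like cells. Without Cdh5, a setting added after the marker UMIs were seen, the values were 0.512, 0.493 and 0.472 for Flt1 and 0.790, 0.510 and 0.483 for Kdr, still below 1 in the 3 libraries. Nrp1 then stood at 1.56, 0.746 and 0.501 and Tek at 1.18, 2.01 and 1.40, so Tek lay above 1 in the 3 libraries and Nrp1 in mutant 1. These values rest on 21, 28 and 30 Tek UMIs and, for Nrp1 in mutant 1, on 21 UMIs. They are given without a counting interval, and no excess in β cells is read from them. The part of endothelial RNA in the β cell values was not tested.

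Nrp1 was found in stellate-like as well as in endothelial-like cells. Stellate-like cells had 452, 341 and 329 CPM from 6, 4 and 21 UMIs, and the difference from β cells was 6.28 ± 0.55 (adjusted p = 6.6e-19). Nrp1 was nevertheless lower in stellate-like than in endothelial-like cells (-1.56 ± 0.39, adjusted p = 0.0015), a call lost with DESeq2 (adjusted p = 0.11), without control 2 (adjusted p = 0.45) and after thinning (adjusted p = 0.11). Macrophage-like cells held 0, 2 and 4 Nrp1 UMIs.

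Pdgfrb, the receptor that marks pericytes, was found in stellate-like cells at 377, 1277 and 1223 CPM, from 5, 15 and 78 UMIs. β cells had 0.427, 0.530 and 0.341 CPM and endothelial-like cells 1, 0 and 1 UMI, and Pdgfrb was at 0 in the α, δ, PP and macrophage-like cells of all 3 libraries. The stellate sum of mutant 2 fell under the minimum of 10 cells, so the tests rest on the stellate-like cells of mutant 1 and control 2. Pdgfrb and Nrp1 were higher in stellate-like than in β cells and Vegfa and Vegfb were lower, against 14.3% of all genes called higher and 19.4% lower. Pdgfrb and Nrp1 had passed the filter on low counts through the classes where they were high. The log2 difference of Pdgfrb was 9.48 ± 0.92 (adjusted p = 3.5e-16), and it was 0.041 by the adjusted p of DESeq2. Without control 2, whose 78 UMIs carry most of the count, Pdgfrb did not pass the filter on low counts and Nrp1 alone was called higher. With sums of at least 5 cells, a setting added after the cell numbers were seen, mutant 2 entered and both genes stayed higher.

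The stellate-like class held RNA of both pericyte and fibroblast markers. UMIs of 8 pericyte markers numbered 55, 105 and 966 in mutant 1, mutant 2 and control 2, and those of 5 fibroblast markers 43, 35 and 77. Rgs5 alone gave 15, 63 and 619 of the pericyte UMIs. Rgs5, Acta2, Cspg4 and Notch3 of the pericyte list and Dcn, Lum, Pdgfra and Col1a1 of the fibroblast list also helped to define the class. A further 4 collagen genes that helped to define the class but are on neither of these lists, Col1a2, Col3a1, Col6a1 and Col6a2, gave 89, 51 and 217 UMIs. Counted with the fibroblast markers they bring that sum to 132, 86 and 294, above the pericyte sum in mutant 1 and below it in mutant 2 and control 2, so the order in mutant 1 depends on the markers chosen. By the lists of 8 and 5 markers, more pericyte than fibroblast UMIs were found in 6 of 10, 6 of 8 and 13 of 15 cells. These cells held 5, 13 and 67 Pdgfrb UMIs, and the other stellate-like cells 0, 2 and 11. Of single cells, 2 of 10, 6 of 8 and 14 of 15 held a Pdgfrb UMI.

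Levels of its ligand gene Pdgfb were highest in the endothelial-like and macrophage-like classes. Endothelial-like cells had 278, 160 and 223 CPM from 17, 13 and 61 UMIs, and macrophage-like cells 0, 203 and 266 CPM from 0, 5 and 14 UMIs, so these ranges met. β cells held 11, 4 and 47 Pdgfb UMIs (1.57, 0.530 and 1.34 CPM), between 0.540 and 2.04 times the amount that goes with their endothelial marker UMIs, or between 0.948 and 4.13 times without Cdh5. Angpt2, which destabilizes vessels, gave 3, 1 and 28 UMIs in endothelial-like cells (49.1, 12.3 and 103 CPM). β cells held 8, 5 and 33 Angpt2 UMIs (1.14, 0.663 and 0.939 CPM). Without the filter on low counts Angpt2 was higher in endothelial-like than in β cells by 4.66 ± 0.66 (edgeR, adjusted p = 4.4e-11). In control 2 the β cells held 3.13 times the Angpt2 that goes with their endothelial marker UMIs, or 6.32 times without Cdh5.

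In the direct contrast of stellate-like with endothelial-like cells, 6 of the 8 genes passed the test, Pdgfrb higher and Kdr, Flt1, Nrp1, Tek and Pdgfb lower, against 6.85% of all genes called higher and 9.14% lower. These 6 genes had passed the filter on low counts through the classes where they were high. Pdgfrb differed by 7.37 ± 0.99 (adjusted p = 1.5e-09, but 0.27 with DESeq2), Flt1 by -8.16 ± 0.54 (adjusted p = 2.0e-26) and Tek by -5.30 ± 0.89 (adjusted p = 1.1e-06). Kdr was at 0 in all 3 stellate sums. Over the libraries it stood at 2760 CPM in endothelial-like cells against 0 of 88799 UMIs in stellate-like cells, which is at least 81.7-fold higher against a floor of 3 counts over the group. For Pdgfb, 1 UMI was counted in stellate-like cells, in mutant 2. Without control 2 or with thinned cells, 3 genes passed.

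Genes of the same pathways were taken as lists. Of those in this paragraph, only Pdgfa and Plxna2 reached 20 CPM in β cells. The others tested passed the filter on low counts through other classes, so their counts are not read against the shares of all genes. Of all genes tested, 25.1% were called higher and 30.8% lower in endothelial-like than in β cells. In stellate-like cells these shares were 14.3% and 19.4%. Among other VEGF genes, Nrp2 (5.86) and Flt4 (7.74) were higher in endothelial-like than in β cells on the log2 scale and Pgf was lower (-3.68), with 3 of 4 tested. Nrp2 was also higher than in β cells in stellate-like (5.03) and δ cells (3.05). Between stellate-like and endothelial-like cells Nrp2 was not called (-0.83, edgeR adjusted p = 0.53). The TIE genes Tie1 and Ptprb, 2 of 4 tested, were both higher, but Tie1 also served as an endothelial marker. Among other PDGF genes, 2 of 4 were tested. Pdgfd was higher (6.71) and Pdgfa lower (-2.38) in endothelial-like cells, and both were higher in stellate-like than in β cells (3.64 and 2.27). Of the semaphorins and plexins, 3 of 4 tested were higher in endothelial-like cells, namely Plxnd1, Sema3f and Plxna2, and 0 were lower. The remaining gene, Sema3e, was not called there but was higher in α (3.09) and δ cells (3.34) than in β cells.

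Tip cell and VEGF response genes were higher in endothelial-like cells in 8 of the 8 tested (of 9), beside 25.1% of all genes. Of these 9 genes and of the 8 vessel basement membrane genes, 0 reached 20 CPM in β cells. Those tested thus passed the filter on low counts through other classes. That favoured a higher call and a higher median, so counts and medians of both lists are not read against all genes. For the tip cell and VEGF response genes the median log2 difference was 6.88. Esm1, a VEGF-induced gene of tip cells, differed by 7.71 and the Notch ligand Dll4 by 5.12. In stellate-like cells 0 of the 8 were called in either direction against β cells, beside 14.3% of all genes higher and 19.4% lower. Lower calls were hardly possible there, since these genes were rare in β cells and stellate UMIs were few (Esm1 -7.46 ± 4.43). Vessel basement membrane genes were higher in endothelial-like cells in 8 of 8 (median 5.79), beside the same 25.1% of all genes. In stellate-like cells 7 of 8 were higher (median 4.16), beside 14.3% of all genes. The collagens Col4a1 and Col4a2 differed by 4.99 and 7.89 in endothelial-like cells and by 4.69 and 7.02 in stellate-like cells.

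Of 18 hypoxia genes, 9 were tested, and 3 were higher and 1 lower in endothelial-like than in β cells, where 25.1% of all genes tested were called higher and 30.8% lower. Epas1, which encodes the hypoxia factor HIF-2α, was higher by 7.25, and the glycolytic genes Ldha and Pfkfb3 were higher by 6.22 and 2.42. These 3 genes lay under 20 CPM in β cells and passed the filter on low counts through other classes. Bnip3, a mitophagy gene, was lower (-3.70), and the other 5 were not called. Ldha is known to be kept low in β cells.

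The genes whose levels were most like those of Vegfa over the 20 sums of class and library, on the log2 CPM scale, were Kif1a (Pearson r = 0.972), Dnmt3a (0.956) and Umad1 (0.955), out of 5094 genes compared. For Kdr they were Bdkrb2 (0.978), Pcdh17 (0.973) and Notch4 (0.960). These sums share libraries and differ widely in depth, so the correlations describe a pattern over classes and are given without a test.

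Between the libraries, Vegfb showed the larger difference of the ligands. In β cells Vegfb was higher than in control 2 by 1.37 in mutant 1 and 1.49 in mutant 2 on the log2 scale after TMM scaling, and by 1.95 and 2.08 on plain CPM of all UMIs. Vegfa was higher by 0.38 and 0.35 after TMM scaling and by 0.96 and 0.94 on plain CPM. The median of all genes with at least 20 CPM was -0.20 and -0.22 after TMM scaling and 0.41 and 0.40 on plain CPM. A change of scaling moves all genes of a library pair by about the same amount, so it leaves their distance from this median about as it was. The mutant libraries differed from each other by 0.02 for Vegfa and 0.12 for Vegfb. Against a fold of 0.5 in both mutant libraries, Vegfb was past it and Vegfa was not under TMM scaling, while 14.5% of 4744 genes were past it upward and 32.6% downward (686 and 1545 genes, or 1943 and 578 on plain CPM). In β cells of 3000 to 6000 UMIs, Vegfa was higher by 0.64 and 0.65 and Vegfb by 1.60 and 1.80. These are values of 3 libraries, and no interval beyond counting error can be given. The β cell marker gene Mafa stood at 1607, 1462 and 240 CPM in the β cells of mutant 1, mutant 2 and control 2. The study reports lower Mafa transcript levels in mutant than in control β cells. That is the opposite of the order seen here. The study compared β cells of all its control and mutant assays under its own normalization. The Mafa values here are plain CPM, with control 2 as the only control library. All directions between mutant and control libraries in this report rest on the genotype labels, and whether these labels hold was not tested.

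**Figure D4:**
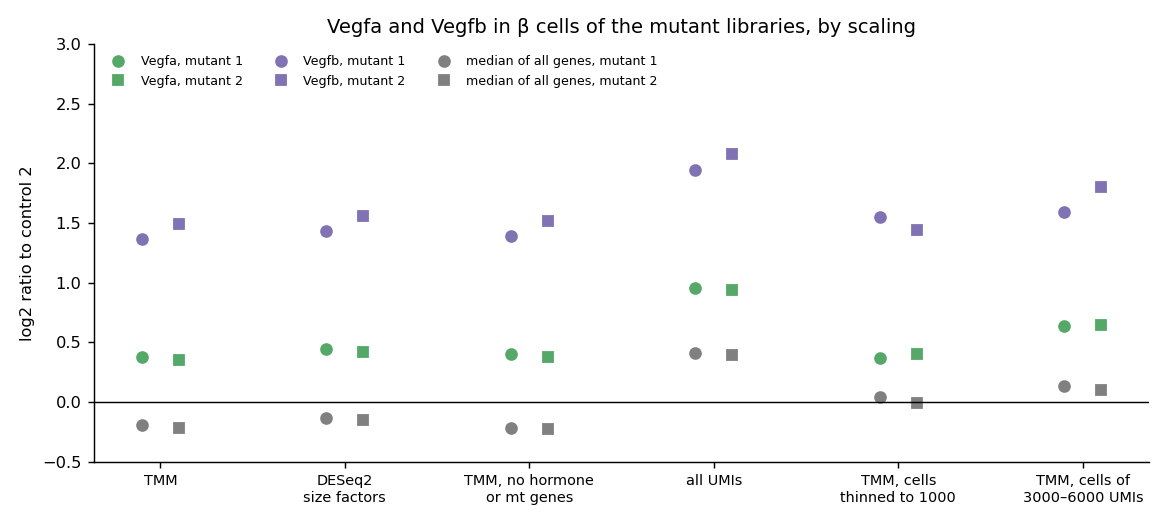
Log2 ratio of each mutant library to control 2 in β cells (vertical axis) for Vegfa, Vegfb and the median of all genes with at least 20 CPM, under 6 scalings or cell sets (horizontal axis). Vegfb lies above Vegfa and Vegfa above the median of all genes in each of them, an order that a change of scaling alone cannot alter, and all 3 move up on plain CPM of all UMIs.

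The share of Vegfb among Vegfa plus Vegfb UMIs, which no scaling touches, was 34.5% in β cells of mutant 1 (exact 95% interval 32.2 to 36.9), 36.9% in mutant 2 (34.6 to 39.2) and 20.9% in control 2 (19.6 to 22.4). In α cells the shares were 29.7%, 21.9% and 26.9% and their intervals overlapped. After thinning to 1000 UMIs, a Vegfb UMI was seen in 7.48%, 7.49% and 2.38% of the β cells that had at least that many. Vegfa in α cells was higher by 0.43 and 0.37 than in control 2 and in δ cells by 0.14 and 0.31, with overlapping Poisson intervals. Of other ligands, Pdgfa was higher in β cells by 0.55 and 0.60 after TMM scaling.

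Among the 4 receptors measured in endothelial-like cells, Kdr separated the libraries most. In endothelial-like cells Kdr was lower than in control 2 by -1.62 in mutant 1 and -1.29 in mutant 2 on the log2 scale after TMM scaling, and by -1.49 and -1.14 on plain CPM. Nrp1 was lower by -1.04 and -0.76. Both were past the fold of 0.5 in both mutant libraries, as were 19.2% of 6914 genes downward and 11.9% upward. Flt1 differed by 0.00 and -0.18, and Tek by 0.82 and 0.18. Endothelial-like cells of at least 1000 UMIs were also thinned to that depth. Kdr was then seen in 62.5%, 58.6% and 90.9% of them, Nrp1 in 45.8%, 58.6% and 84.8%, and Tek in 62.5%, 51.7% and 30.3%.

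The share of Kdr among Kdr plus Flt1 UMIs was 13.3% in endothelial-like cells of mutant 1 (exact 95% interval 10.6 to 16.4), 17.9% in mutant 2 (15.2 to 20.9) and 32.1% in control 2 (30.4 to 33.8). The same share could be read outside the endothelial-like class. In the β cells of the same libraries it was 19.1% (12.2 to 27.7), 18.4% (11.8 to 26.8) and 32.6% (26.9 to 38.6), and in all kept cells but the endothelial-like ones 18.2%, 15.4% and 30.6%. The mutant libraries thus lay below control 2 in each of the cell sets. Intervals overlapped between mutant libraries and, in the β cells of mutant 1, with that of control 2 as well. The last set contains the β cells and the mixed cells, which held 85 and 126 of its 213 Kdr UMIs in control 2. The sets are therefore not separate readings, and the part of endothelial RNA in the shares outside the endothelial-like class was not tested.

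**Figure D5:**
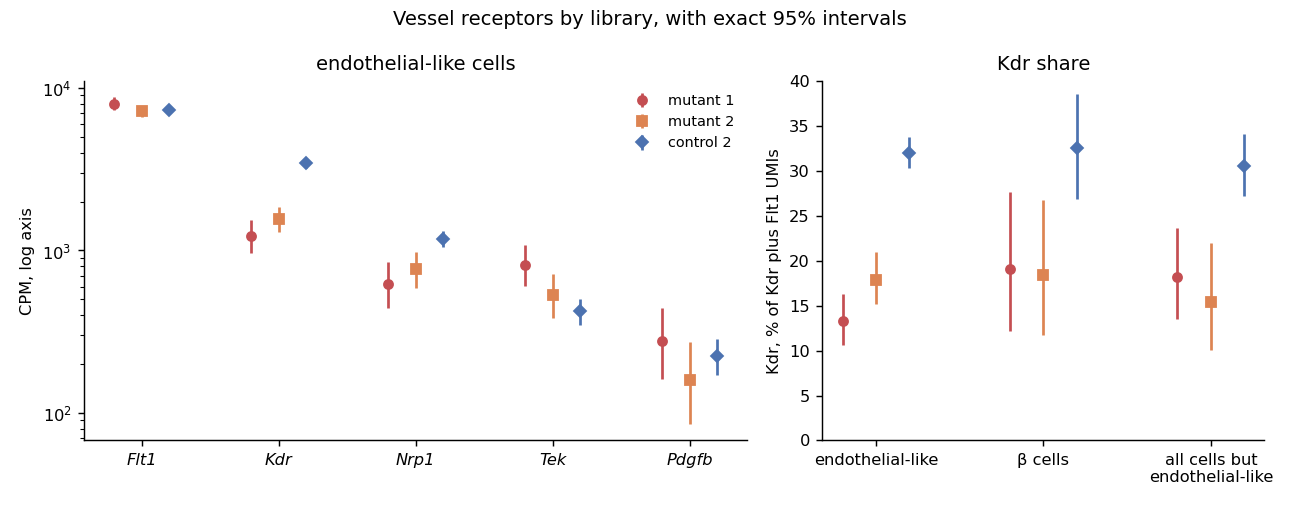
Left, CPM (log axis) of the receptors and Pdgfb in endothelial-like cells, 1 point per library with exact 95% Poisson intervals. Right, Kdr as a percentage of Kdr plus Flt1 UMIs with exact 95% binomial intervals, where control 2 lies above both mutant libraries in endothelial-like cells, in β cells and in all cells but the endothelial-like ones. The last of these sets contains the β cells.

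For the pericyte pair the libraries gave no steady order. Pdgfb in endothelial-like cells differed from control 2 by 0.18 in mutant 1 and -0.60 in mutant 2. Pdgfrb in stellate-like cells differed by -2.29 and -0.73 after TMM scaling and by -1.61 and 0.06 on plain CPM, from 5, 15 and 78 UMIs. The marker makeup of the stellate-like class moved with it, since pericyte markers gave 4144, 8941 and 15145 CPM and fibroblast markers 3240, 2980 and 1207 CPM in mutant 1, mutant 2 and control 2. The part of this makeup in the Pdgfrb values was not tested.

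Hypoxia is a known inducer of Vegfa, and 9 of the 18 hypoxia genes reached 20 CPM in β cells. After TMM scaling 0 of them were higher and 3, P4ha1, Arnt and Pgk1, were lower by more than the fold of 0.5 in both mutant libraries, beside 14.5% of all genes higher and 32.6% lower. The median of the 9 genes was -0.01 against -0.21 over all genes. On plain CPM, 5 were higher and 2, Arnt and Pgk1, were lower, beside 41.1% and 12.2% of 4726 genes. The lower count after TMM scaling is near the share of all genes, and nothing is read from these counts about the list. Pgk1, a glycolytic enzyme, was lower by -1.67 and -1.15 and Arnt, the partner of the hypoxia factors, by -1.23 and -1.16 after TMM scaling.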

How the data were processed

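Islet cells of 4 labelled libraries (2 mutant, 2 control) were profiled, and 3 count matrices were read. The deposited values are whole UMI counts per gene and cell, not normalized, which the authors made with DropEst per the study's methods. The submitters' processing notes name Seurat and the build GRCm39; an aligner is not given in the sources used here. Cells with under 500 UMIs, under 100 genes or over 10% mitochondrial UMIs were removed. Classes needed 10% insulin, 3% Gcg, 1% Sst or 3% Ppy of UMIs, or 0.1% of UMIs from at least 3 markers of a list; these limits were set after the distributions of hormone and marker shares had been seen. Cells meeting several rules were left out, and no doublet caller was run. Of the kept cells, 296 lay near the limit for β cells, 201 near that for endothelial-like and 23 near that for stellate-like cells.

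UMIs were summed per class and library with at least 10 cells (20 sums, 7 classes) and fitted with edgeR 4.0.16 in R 4.3.3 (TMM, class plus library, quasi-likelihood test, adjusted p under 0.05). With the library as a block, p-values measure how differences between classes vary over these 3 libraries, estimated over the 7 classes together. The labels do not say that the libraries came from separate animals, so this variation may be technical. The SE given with edgeR differences is the absolute log2 difference divided by the square root of the F value of the test. Genotypes were compared by log2 ratios with a prior count of 1, without a test. The fit was tested on simulated data for endothelial against β cells only, with a spread of counts set in advance. At log2 changes of 2, -2, 4 and -4, 49, 35, 50 and 48 of 50 genes were recovered. Of 2480 unchanged genes, 4 were called. The simulated classes shared a pooled profile apart from the changed genes, which were drawn from abundant genes. Hormone-rich β sums and genes confined to a single class were not simulated. These rates therefore do not carry over to the real contrasts, whose calls moved with the scaling. DESeq2 1.42.0, other scalings, thinning with numpy 2.4.6, other limits, scanpy 1.11.5 clusters and left-out libraries were alternatives. Poisson intervals and shares of UMIs use exact 95% methods (scipy 1.17.1) and cover counting error only. The named genes are the 10 members, examples of 7 fixed lists and the 3 genes most correlated with Vegfa and with Kdr. Members and lists were chosen with earlier results of these data known. Some genes served both as list members and class markers (Tie1, Pdgfra). Gene positions and promoters come from GRCm38 and not from the build of the counts.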

Additional observations from a re-analysis of the deposited data

How the results depend on the processing

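No paired analysis was possible because the mutant and control libraries analysed share fewer than 2 replicate numbers. The count of genes higher in endothelial-like than in β cells (5) lay between 5 and 7 in the alternatives, with 7 where the filter on low counts was left out or clusters took the place of the classes. The count higher in stellate-like cells (2) fell to 1 without control 2. The count for α against β cells (2) was 1 with DESeq2, 0 on CPM of all UMIs and 0 to 2 with a library left out. With cells thinned to 1000 UMIs it was 0 because neither Vegfa nor Vegfb passed the filter on low counts, so both went untested there, as they did for δ cells. The count for δ against β cells (0) was 0 to 3 with a library left out. It was 3 when control 2 was absent, beside 468 higher and 824 lower of 5332 genes. The count for stellate-like against endothelial-like cells (6) was 3 with thinned cells and 3 to 6 with a library left out, with 3 when control 2 was absent. Where a left-out library leaves 1 stellate sum, that sum is assumed to vary like the other classes. The estimates of Vegfa and Vegfb in δ cells reversed to 0.47 and 0.24 on CPM of all UMIs.

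The mean log2 ratio of Vegfa in β cells (0.36) was 0.43 with DESeq2 size factors, 0.95 on CPM of all UMIs, 0.39 without hormone and mitochondrial genes, 0.39 with thinned cells and 0.64 in cells of 3000 to 6000 UMIs. That of Vegfb (1.43) was 2.01 on CPM of all UMIs and 1.70 in cells of 3000 to 6000 UMIs. Both kept their direction in every alternative, with a range of 0.35 to 0.38 for Vegfa and 1.37 to 1.49 for Vegfb with a mutant library left out. The count of genes past the fold (2231) was 958 with at least 50 CPM, and the share of them that was lower fell from 69.3% to 50.2% with thinned cells and 40.2% in cells of 3000 to 6000 UMIs. In endothelial-like cells the mean ratio of Flt1 (-0.09) reversed to 0.051 on CPM of all UMIs and 0.16 with thinned cells, and that of Pdgfb (-0.21) to 0.62 with thinned cells and, with a mutant library left out, ranged from -0.60 to 0.18. Those of Kdr and Nrp1 kept their direction in every alternative run. Of the values of single genes under an alternative, 262 kept direction and, where tested, side of the threshold, 22 lost the call, 2 gained it and 6, those given above, reversed. The 6 shares of β cells moved after thinning to 500 instead of 1000 UMIs, where each cell holds fewer UMIs to begin with. Leaving Cdh5 out of the endothelial markers moved 15 of 17 ratios of members in β cells beyond their counting interval, all upward. That removal rescales all ratios of a library by the same factor. The factor is upward because Cdh5 is a larger part of the marker UMIs in β cells than in endothelial-like cells. The 15 ratios are therefore not separate readings. Why Cdh5 UMIs were frequent in β cells was not tested, nor was the cause of the other shifts. Depth limits Vegfc, Angpt2 and the stellate-like cells, which rest on few UMIs.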
